A study of Helianthus annuus with 9 samples.

Results

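Single-exon antisense loci are stretches of assembled RNA that lie on the strand opposite to an annotated gene and show no splicing. They were chosen from the deposited transcript assembly, in which each assembled transcript carries a class code that relates it to the annotation. Class code x marks a transcript that overlaps an exon of an annotated gene on the other strand, and that gene is called the host here. Of 38992 assembled loci, 3642 had transcripts of class x alone with 1 exon each. Among these, 1584 were listed in the lncRNA (long non-coding RNA) table under the same number, and they are the loci described here, out of 65535 features in that table. Another 122 were listed in the mRNA table and 1936 in neither, and these were not analysed. Both tables hold 65535 features, the row limit of older spreadsheets, so the loci listed may be part of a longer set.

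The libraries came from seeds of L-1-OL-1, a sunflower (Helianthus annuus) line described as high in oleic acid and grown in the field without treatment. Seeds were taken at day 7, day 22 and day 37, with 3 libraries for each day, and the labels do not say from which event days were counted. Total RNA was freed of ribosomal RNA before sequencing. Nothing in the labels says whether libraries of the same day stem from different plants. The p-values therefore measure the spread between libraries, and that spread may be technical. In whole seeds, fewer cells of a type and less RNA per cell cannot be told apart.

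Antisense transcripts are made from the DNA strand opposite to a gene. In plants some act on the host gene in cis, through its chromatin, through transcription across its promoter, or through double-stranded RNA that is cut into small RNA. The best studied case is the antisense RNA of the flowering repressor FLC in Arabidopsis. Others have no known role, and unspliced antisense signal can also come from low-level transcription or from DNA in the RNA sample. The files and the gene table pair host IDs with symbols and gene classes but with no product names, so host functions are not given and the lists matched on product names, seed markers and small RNA pathway genes among them, were not used.

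All 1584 loci consisted of 1 transcript. They ranged from 200 to 14902 bases in length with a median of 999, and 791 were longer than 1000 bases. The single-exon intergenic loci of the same table, 13107 in number, had a median length of 838 bases. On the 5 chromosome sequences that the assembly file covers, NC_035436.1 held 368 loci, NC_035433.1 340, NC_035434.1 312, NC_035435.1 311 and NC_035437.1 253. The plus strand carried 890 and the minus strand 694, and the file ends partway along the minus strand of NC_035437.1. The median level in the late libraries differed little between these sequences, from 0.859 FPKM (fragments per kilobase of transcript relative to all fragments, a level per length) on NC_035434.1 to 1.02 FPKM on NC_035437.1.

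The loci had 1536 different hosts, and 1489 of these hosts carried a single locus. Another 46 carried 2, and 1 carried 3. By the gene table, the host was a protein-coding gene for 1204 loci and itself a non-coding RNA gene for 219. For 159 loci the host ID had no match in that table, and 2 had hosts of other classes. The mRNA table listed the host of 1202 loci, which were 1163 genes, and the lncRNA table the host of 139.

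For 194 loci the assembly also held isoforms of the host, and all 194 lay on the opposite strand to these. Their spans showed where the antisense locus sat. Inside the span of the host isoforms lay 96 loci, while 73 reached past the 5′ end of the host alone and 14 past the 3′ end alone. Past both ends reached 1, and 10 lay outside the span. An exon of such an isoform was overlapped by 183 loci, with a median of 323 bases and a range from 7 to 6511. The overlap took in the whole locus in 27 cases, and 11 met no assembled exon. Levels were similar across positions, and the median late level was 0.827 FPKM for loci inside the host, 0.838 for loci past the 5′ end and 0.766 for those past the 3′ end. These counts hold for hosts with an assembled spliced isoform and not for the other 1390 loci.

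**Figure D1:**
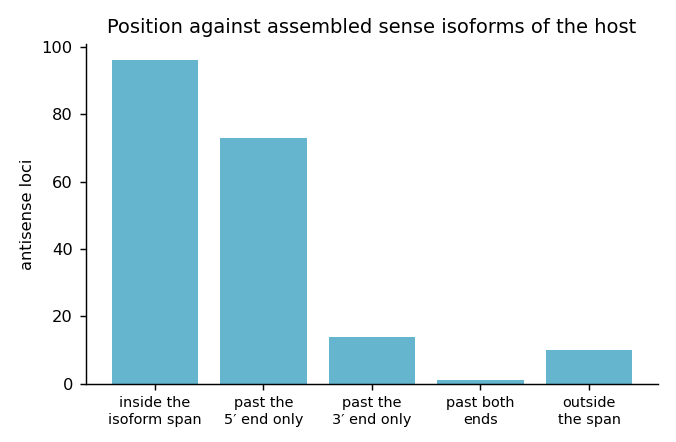
Number of antisense loci (vertical axis) by position against the assembled sense isoforms of the host (horizontal axis), for the 194 loci whose host has one. Loci past the 5′ end only (73) outnumber those past the 3′ end only (14).

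On day 7 most antisense loci were at or near 0. In the 3 day 7 libraries the median level was 0 FPKM, and 1058, 1051 and 1050 of the 1584 loci were listed at 0. In these libraries 847 loci were listed at 0 in all 3, which is 53.5%, against 67.9% of the single-exon intergenic loci. The highest value in a day 7 library was 4.95 FPKM. The FPKM summed over the loci came to 119 ± 2.54 for day 7, 3471 ± 1061 for day 22 and 4697 ± 1036 for day 37 (SD, n = 3). Late libraries held between 19.9 and 48.9 times the mean day 7 sum.

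Late levels were low and widespread. On day 22 replicates 1, 2 and 3 had medians of 0.57, 0.81 and 1.065 FPKM, and the day 37 medians were 0.94, 1.02 and 1.425 FPKM. Among the 1584 loci, 1517 were above 0 in all 6 late libraries, but 282 reached 1 FPKM in all 6 and 34 reached 10 FPKM in all 6. The number at 1 FPKM or more averaged 25 ± 1 for day 7, 601 ± 264 for day 22 and 918 ± 254 for day 37 (SD, n = 3). In 1453 loci every late library was above every day 7 library. Of all lncRNA features, 83.4% showed this, and among the antisense loci 91.7%.

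**Figure D2:**
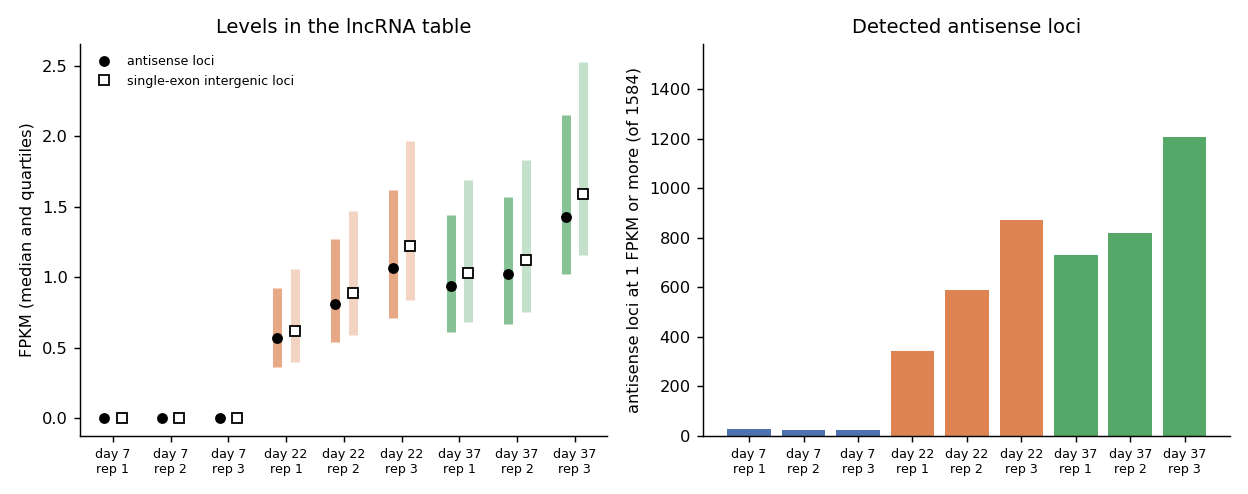
Left, median (symbols) and quartiles (bars) of FPKM in each library for the 1584 antisense loci and the 13107 single-exon intergenic loci. Right, number of antisense loci at 1 FPKM or more. Day 7 medians are 0, and on both late days replicate 3 is highest.

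The late levels moved with the library. Replicate 3 was above replicate 1 on both late days in 1210 loci (76.4%). The ratio of replicate 3 to replicate 1 had a median of 1.94 on day 22, with quartiles of 1.46 and 2.44, over the 1477 loci at 0.1 FPKM or more in every late library. On day 37 it had a median of 1.56, with quartiles of 1.22 and 1.97. The single-exon intergenic loci gave medians of 1.97 and 1.57. The host genes were split, with medians of 0.851 on day 22 (quartiles 0.556 and 1.79) and 0.798 on day 37 (quartiles 0.277 and 1.52) over 976 hosts. Of all 1163 hosts 407 were above replicate 1 in replicate 3 on both late days, and 44.8% were lower in replicate 3 than replicate 1 on each late day. The sum of the mRNA table also fell across these libraries, from 331317 to 228550 FPKM on day 22 and from 277263 to 149870 on day 37. What sets the libraries numbered 3 apart, and its part in the late rise, was not tested.

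Longer loci stood higher. The median late level was 0.746 FPKM for the 222 loci under 500 bases, 0.807 for the 571 from 500 bases, 0.95 for the 496 from 1000 bases and 1.42 for the 295 of 2000 bases or more. Of the 295 longest loci, 90.2% were higher in replicate 3 than replicate 1 on each late day, against 49.5% of the shortest. Values of short loci rest on fewer reads, and the number of reads behind each value is unknown.

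The first comparison asked which loci changed between day 7 and day 22. Of the 744 loci that passed a filter of at least 1 FPKM in at least 3 of 9 libraries, 469 rose (63.0%) and none fell. Of the 34147 lncRNA features tested, 60.9% rose and 1.69% fell, so the share of risen loci was near that background. The median log2 fold change was 1.11 for the loci and 1.11 for all features. A call needs an adjusted p under 0.05 from limma (Benjamini-Hochberg over the table) together with a log2 change of 1 or more in size. The single-exon intergenic loci had 65.4% risen of 7432 tested, and the multi-exon antisense loci 19 of 28. By contrast 14.4% of the annotated lncRNA rose and 11.4% fell. At an unadjusted p under 0.05 in limma, 5 loci were lower on day 22, 0 of them by a log2 change of 1 or more. The filter bears on the direction, since 716 of the 744 loci reached 1 FPKM in no day 7 library and so passed through the late libraries.

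The number of loci called risen depended on the scaling of the libraries. With median-of-ratios scaling 311 loci passed the filter in place of 744, so scaling and filter changed together, and 162 rose and 52 fell (75.7% of calls risen, against 100% as deposited), and with quantile normalization 75 rose and 37 fell (67.0% risen). Over the lncRNA features tested in each fit the median log2 change was 1.11 as deposited (34147 features), 0.98 with median-of-ratios scaling (16003) and −0.02 with quantile normalization (34147). Quantile normalization gives every library the same distribution, so a median change near 0 was set by the method. The factors of median-of-ratios scaling rest on features above 0 in all 9 libraries, which leaves out those at 0 on day 7. What part of the rise comes from scaling was not tested. Without both late libraries numbered 3, 483 loci in place of 744 were tested, and 365 rose and 1 fell. Of all lncRNA features tested in that fit 69.8% rose.

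The 6 loci with the highest mean over all libraries were low on day 7 and high on both late days. Their late means ran from 224 down to 79.5 FPKM, and the next locus, LXLOC_017211, followed at 70.5 FPKM. LXLOC_036652, on NC_035436.1 from 39482393 to 39486061 on the plus strand, was at 1.34, 1.16 and 1.52 FPKM on day 7, at 99.71, 224.5 and 239.04 on day 22, and at 171.95, 287.28 and 319.94 on day 37. No late library came near a day 7 value. Its log2 change to day 22 came to 6.24 ± 0.38 (SE; limma adjusted p 5.15e-16). Its protein-coding host LOC110933183 was listed at 0 on day 7 and between 0.27 and 0.91 FPKM in the late libraries.

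LXLOC_027283, a locus of 848 bases on NC_035435.1 from 123242530 to 123243377, was at 0.07, 0.2 and 0.14 FPKM on day 7. It was at 122.54, 174.18 and 238.06 FPKM on day 22 and at 213.86, 228.61 and 315.74 on day 37. Among the 744 loci tested it had the largest rise at day 22, a log2 change of 7.25 ± 0.34 (SE; limma adjusted p 8.48e-19). Its host LOC110928062 is a non-coding RNA gene. LXLOC_048974, on NC_035437.1 from 32170349 to 32175008, went from 1.86 ± 0.116 FPKM (SD, n = 3) to 164 ± 51.3 and 230 ± 59.1. The protein-coding host LOC110942725 of this locus was listed at 0 on day 7 and at no more than 1.04 FPKM later.

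LXLOC_038342 on NC_035436.1, from 94295109 to 94296404, lies opposite the non-coding RNA gene LOC110934765. It stood at 0.593 ± 0.159 FPKM for day 7, 106 ± 18.4 for day 22 and 123 ± 13.8 for day 37 (SD, n = 3). LXLOC_005468, on NC_035433.1 from 144127502 to 144129218, stood at 0.3 ± 0.03, 77.6 ± 22.9 and 101 ± 21.9 FPKM. Its host, the gene with ID 110933078, also rose, from at most 0.01 FPKM on day 7 to 1.2 ± 0.473 on day 22, a call lost with quantile normalization (log2 change 0.27) and without day 22 replicate 3 (0.95). LXLOC_053297, on NC_035437.1 from 166936658 to 166937705 and opposite the non-coding RNA gene LOC110939207, stood at 0.19 ± 0.02, 63.9 ± 20.2 and 95.1 ± 21.1 FPKM. All 6 loci rose at day 22 under each scaling, and none was called between day 22 and day 37.

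**Figure D3:**
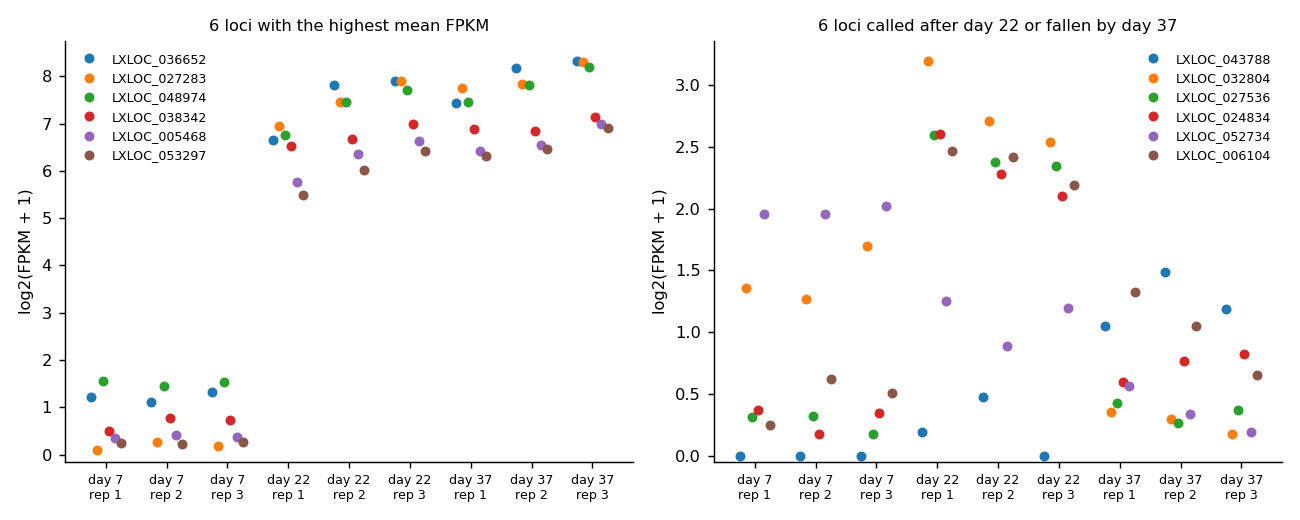
Level of single loci in each library as log2(FPKM + 1), 1 point per library. Left, the 6 loci with the highest mean, low on day 7 and high in all late libraries; right, the 6 loci called between day 22 and day 37 or fallen by day 37, most of which are lower on day 37 than on day 22.

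These abundant loci shared the library pattern of the weak ones. In the 34 loci at 10 FPKM or more in all 6 late libraries, replicate 3 was above replicate 1 on both days in all 34. The ratio of replicate 3 to replicate 1 in them had a median of 1.96 on day 22 with a range from 1.39 to 2.40, and a median of 1.55 on day 37 with a range from 1.19 to 2.00. The medians over all loci were 1.94 and 1.56. The 34 loci had a median length of 2164 bases, 23 had a protein-coding host and 8 a non-coding one.

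From day 22 to day 37 few loci changed. Of the 744 tested, 1 rose and 4 fell. These are 0.134% and 0.538%, below the 0.515% risen and 1.87% fallen among all lncRNA features tested. The single-exon intergenic loci gave 0.377% and 0.552%, so the fallen share was near theirs. Of the annotated lncRNA, which are part of that background, 15.6% fell. As deposited, the 4 fallen loci were highest on day 22. The later fall held under both other scalings, but the rise before it was called for none of the 4 there. LXLOC_032804, on NC_035435.1 from 113955315 to 113956453 on the minus strand, was at 1.56, 1.41 and 2.24 FPKM on day 7, at 8.17, 5.54 and 4.82 on day 22 and at 0.28, 0.23 and 0.13 on day 37. The 3 days did not overlap. It rose by a log2 fold change of 1.38 ± 0.23 (SE) at day 22 and then fell by 2.54 ± 0.23 on the log2 scale, with limma adjusted p-values of 1.74e-06 and 3.64e-10. The earlier change turned to −0.70 with median-of-ratios scaling and −0.20 with quantile normalization. The locus lies inside the assembled isoforms of its host, the gene with ID 110929733, and 420 of its 1139 bases overlap their exons. The host stayed between 0.04 and 0.48 FPKM in all libraries and was not tested.

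LXLOC_027536, on NC_035435.1 from 129651508 to 129652276, was at 0.24, 0.25 and 0.13 FPKM on day 7, at 5.06, 4.2 and 4.08 on day 22 and at 0.34, 0.2 and 0.29 on day 37. Its values on day 22 were above all others, and the later log2 change was −2.09 ± 0.19 (SE; limma adjusted p 5.69e-10). LXLOC_024834, on NC_035435.1 from 50610425 to 50612033, was at 0.23 ± 0.0872 FPKM for day 7, 4.08 ± 0.919 for day 22 and 0.66 ± 0.135 for day 37 (SD, n = 3), a later log2 fold change of −1.60. Its host LOC110927703, a non-coding RNA gene, stayed at or below 0.67 FPKM in the same table. LXLOC_006104, on NC_035433.1 from 3658083 to 3658918, was at 0.383 ± 0.178, 4.15 ± 0.516 and 1.05 ± 0.465 FPKM, a later log2 fold change of −1.35 with a limma adjusted p of 5.35e-05. This locus is named here because it is the fourth of the 4 falls.

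On day 22 replicate 3 was below replicate 1 in all 4 of these loci, whereas it was above in 88.3% of all 1584 loci. The falls after day 22 were called as deposited, under both other scalings and with replicate numbers as a block. The log2 changes to day 22 were 0.98 for LXLOC_027536, 0.83 for LXLOC_024834 and 0.50 for LXLOC_006104 with median-of-ratios scaling, and 0.25, 0.13 and 0.012 with quantile normalization. When 1 day 22 library was left out 2 of the loci remained called, because LXLOC_027536 and LXLOC_024834 reach 1 FPKM in the 3 day 22 libraries alone and then fail the filter.

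The single rise after day 22 was weak. LXLOC_043788, a locus of 287 bases on NC_035436.1 from 65620979 to 65621265, was listed at 0 in all day 7 libraries, at 0.14, 0.39 and 0 FPKM on day 22 and at 1.07, 1.8 and 1.28 on day 37. Day 22 and day 37 did not overlap, while replicate 3 of day 22 was listed at 0 as on day 7. The log2 change from day 22 was 1.02 ± 0.21 (SE; limma adjusted p 0.00136). The call was lost without day 22 replicate 3 (log2 fold change 0.91), with a pseudocount of 0.1 (2.68) and with quantile normalization (0.64). With median-of-ratios scaling, and without any 1 of the day 37 libraries, the locus failed the filter. It lies inside the assembled isoforms of LOC110936400, a non-coding RNA gene, with 276 bases over their exons.

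Between day 7 and day 37, 661 loci rose and 2 fell, which is 88.8% and 0.269% of those tested. The background was 84.4% risen and 3.88% fallen, and the single-exon intergenic loci had 90.8% risen and 1.02% fallen. LXLOC_032804 was 1 of the 2 fallen loci. The other, LXLOC_052734 on NC_035437.1 from 152123954 to 152125852, was at 2.88, 2.89 and 3.07 FPKM on day 7, at 1.38, 0.85 and 1.29 on day 22 and at 0.48, 0.26 and 0.14 on day 37. The 3 days did not overlap, and over the whole time the locus changed by −1.62 ± 0.20 on the log2 scale (SE; limma adjusted p 6.78e-09). The protein-coding host LOC110941196 fell as well, with 38.3 ± 3.75 FPKM at first, then 14.8 ± 5.16 and 10.2 ± 6.39 (SD, n = 3; log2 fold change to day 37 −2.01, limma adjusted p 0.0021). With median-of-ratios scaling 199 of 311 loci tested rose and 53 fell to day 37, and with quantile normalization 78 of 744 rose and 39 fell. The host lost its call under both (log2 change −0.98 and −0.62).

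A small group of loci was already present on day 7. At 1 FPKM or more in all 3 day 7 libraries stood 20 loci, and 10 of these were at 1 FPKM or more in all 9 libraries. This group was picked by its values, and some of its further members outside the naming rule are named on that ground. Of these, LXLOC_051590 rose from 2.76 ± 0.143 to 27.3 ± 8.87 FPKM at day 22 (SD, n = 3). LXLOC_002871 rose from 1.72 ± 0.211 to 7.03 ± 1.92 FPKM. Their log2 changes were 2.86 and 1.54 as deposited, and 0.51 and −0.57 with median-of-ratios scaling. Others stayed near their day 7 level or were lower late. Replicate 3 was above replicate 1 on both late days in 10 of the 20, and the ratio of replicate 3 to replicate 1 on day 22 had a median of 1.07 in them, against 1.94 over all loci.

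The highest on day 7 among the 10 were LXLOC_021714, LXLOC_031606 and LXLOC_020557. LXLOC_021714, on NC_035434.1 from 143501404 to 143503848, was at 4.32, 4.33 and 4.5 FPKM on day 7, at 7.06, 10.48 and 12.81 on day 22 and at 10.92, 11.02 and 15.46 on day 37. The log2 change of LXLOC_021714 to day 22 was 1.01 ± 0.29 (SE; limma adjusted p 0.00145). It was −1.37 with median-of-ratios scaling and −0.31 with quantile normalization, and the call was lost without day 22 replicate 2 (0.97) or replicate 3 (0.84). The host LOC110897717 rose from at most 0.57 FPKM to 19.5 ± 9.42 (SD, n = 3). LXLOC_031606, on NC_035435.1 from 77325960 to 77326294, was at 4.95, 3.76 and 2.65 FPKM on day 7 and between 7.07 and 8.49 in the late libraries. Its log2 fold change of 0.91 missed the threshold on size and turned to −1.40 and −0.48 with these scalings. The host LOC110931745 stayed at or below 0.84 FPKM.

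As deposited, several loci of the group kept a level near that of day 7. LXLOC_022506 stood at 1.63 ± 0.327 FPKM for day 7, 1.64 ± 0.235 for day 22 and 1.54 ± 0.458 for day 37 (SD, n = 3). LXLOC_027070 stood at 1.43 ± 0.0971, 1.3 ± 0.102 and 1.3 ± 0.503 FPKM, and LXLOC_056783 at 2.66 ± 0.76, 2.98 ± 0.697 and 2.04 ± 0.416. With the deposited scaling none of these 3 was called in any comparison, and their changes under the other scalings are not given here. LOC110929784, the host of LXLOC_027070, fell between day 7 (4.8 ± 0.316 FPKM) and day 37 (1.63 ± 1.12 FPKM) (log2 fold change −1.25, limma adjusted p 0.00433). This call was lost with median-of-ratios scaling (−0.53), with quantile normalization (−0.88) and without day 37 replicate 3 (−0.86). LXLOC_037010 stood at 2.42 ± 0.0473, 3.56 ± 0.214 and 3.63 ± 1.19 FPKM and was not called either.

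Other loci of the group were lower late. LXLOC_020192, on NC_035434.1 from 99011678 to 99013310, was at 1.65, 1.5 and 1.6 FPKM on day 7 and between 0.15 and 0.59 in the late libraries. Its log2 fold change at day 22 was −0.98 with a limma adjusted p of 6.29e-06, just under the size threshold, and −2.46 and −2.29 with median-of-ratios scaling and quantile normalization, where it was called. LXLOC_013354 stood at 1.38 ± 0.0737, 0.91 ± 0.238 and 0.267 ± 0.0723 FPKM (SD, n = 3), with a log2 fold change to day 37 of −0.91 and an adjusted p of 1.76e-05 by limma; it was called with median-of-ratios scaling (−2.34) and quantile normalization (−2.15). LXLOC_053346 stood at 1.2 ± 0.0794, 0.663 ± 0.0987 and 0.697 ± 0.231 FPKM. Its host LOC110941400 fell from 4.45 ± 0.191 FPKM to 1.52 ± 0.325 and 0.787 ± 0.0603, calls lost with median-of-ratios scaling (log2 change −0.76 and −0.85).

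The loci were then set beside their hosts. The mRNA table and the lncRNA table may have been scaled separately, so levels across them are side by side and were not tested against each other. The files do not say whether reads were counted by strand, so reads of a locus and its host cannot be told apart where they overlap. Abundant hosts did not have abundant antisense loci on day 7. For the 24 loci whose host was at 100 FPKM or more on day 7 (median 138 FPKM), the median locus level was 0.0217 FPKM and the highest 0.977. For the 228 loci with hosts from 10 to 100 FPKM (median 19.6 FPKM) it was 0.00667 FPKM, and for the 492 with hosts under 0.1 FPKM it was 0. Fewer loci were listed at 0 in all day 7 libraries opposite abundant hosts. From the lowest host class to the highest these were 287 of 492, 85 of 171, 145 of 287, 105 of 228 and 6 of 24.

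The late level of a locus was highest opposite hosts that had been silent on day 7. The median locus level on day 37 was 1.41 FPKM for hosts under 0.1 FPKM on day 7, 0.967 for hosts from 0.1 to 1 FPKM, 0.927 from 1 to 10, 0.91 from 10 to 100 and 1.13 above. The hosts themselves moved from medians of 138 FPKM on day 7 to 8.47 on day 37 in the highest class, and from 0 to 0.833 FPKM in the lowest. These classes were not tested.

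The locus was above its host in 11.7% ± 0.52 of the 1202 pairs on day 7 (SD, n = 3), in 43.8% ± 5.66 on day 22 and in 56.5% ± 9.61 on day 37. Within the lncRNA table, where 139 loci and their hosts share 1 scaling, the shares were 18.7% ± 1.44, 66.7% ± 6.8 and 74.6% ± 8.79. The highest share of both kinds was in replicate 3 of day 37, at 67.6% and 84.2%. Not every other pair had the locus below its host. On day 7 locus and host were equal in 282, 265 and 275 of the 1202 pairs and in 26, 27 and 31 of the 139. In late libraries no more than 5 and 2 pairs were equal.

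**Figure D4:**
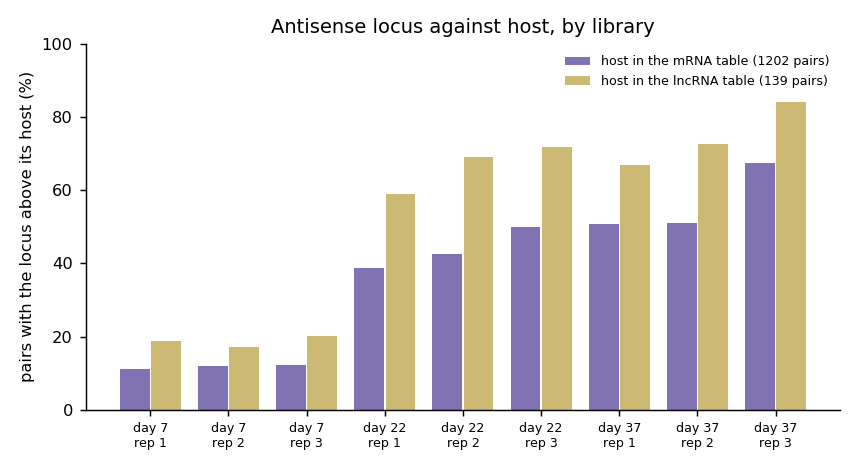
Share of pairs in percent in which the antisense locus has a higher FPKM than its host, by library, for hosts in the mRNA table (1202 pairs) and in the lncRNA table (139 pairs). Both shares are lowest on day 7 and highest in replicate 3 of day 37. Pairs with equal values, most frequent on day 7, are not counted as above.

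Host genes changed in both directions. Of 736 hosts tested in the mRNA table, 166 rose (22.6%) and 222 fell (30.2%) from day 7 to day 22, where 34.1% and 24.9% of all tested features did. From day 22 to day 37, 5 rose and 146 fell (0.679% and 19.8%), where the background was 0.843% and 16.6%. From day 7 to day 37, 211 rose and 342 fell (28.7% and 46.5%), where the background was 39.4% and 38.8%. Whether hosts differ from other features was not tested, and the background holds assembled loci, which the hosts do not. Among the 166 risen hosts, 74.1% were higher in replicate 3 than replicate 1 on each late day, and among the 222 fallen 5.86%.

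The risen share of host calls moved with scaling. At day 22 the deposited values gave 42.8%, median-of-ratios scaling 51.4% (142 risen, 134 fallen) and quantile normalization 30.7% (67 and 151). From day 22 to day 37 it was 3.31%, against 23.5% (28 and 91) and 24.4% (38 and 118). To day 37 from day 7 it was 38.2%, against 56.2% (260 and 203) and 34.7% (143 and 269). Over the mRNA features tested in each fit the median log2 change at day 22 was 0.09, 0.53 and 0.02 in the same order. For the step after day 22 it was 0.01, 0.49 and 0.27, and for the whole time −0.32, 0.61 and −0.06. Without day 37 replicate 3, 30 hosts rose after day 22.

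For 344 pairs both the locus and its host were tested, and their directions at day 22 were set side by side. As deposited, both rose in 105 pairs, and in 36 the locus rose while the host fell. No locus fell as deposited, so no pair had a fallen locus. With median-of-ratios scaling 162 of all loci rose and 52 fell, and with quantile normalization 75 and 37. The pairs were not counted under these scalings. Where the locus rose, 49.1% of hosts rose and 16.8% fell, and over all 344 pairs 40.4% rose and 21.8% fell. In the 105 pairs that rose together the median host level was 0.00333 FPKM on day 7 and 2.16 FPKM in the late libraries. Of these hosts 89.5% were higher in replicate 3 than replicate 1 on each late day, and of the 36 fallen hosts none was. In the 418 pairs with an untested locus 6.94% of hosts rose and 37.8% fell. Most loci, and the hosts near 0 on day 7, passed the filter through the late libraries alone, which favours rises in both. These shares therefore do not show whether locus and host move together, which was not tested.

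**Figure D5:**
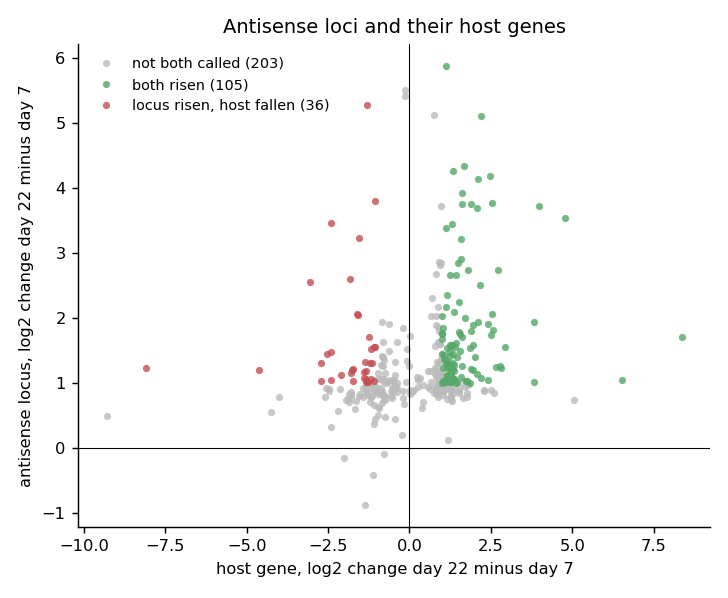
Log2 change from day 7 to day 22 of 344 antisense loci (vertical axis) against that of their host genes (horizontal axis), 1 point per pair. With the deposited scaling both rose in 105 pairs, and in 36 the locus rose while the host fell.

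Among the pairs that moved apart, LXLOC_005578, on NC_035433.1 from 146272675 to 146274754, was at 0.07, 0.17 and 0.24 FPKM on day 7, at 4.47, 5.62 and 7.57 on day 22 and at 5.38, 6.61 and 8.83 on day 37. Its host LOC110882513 was at 44.11, 47.45 and 45.17 FPKM on day 7, at 6.36, 5.11 and 3.02 on day 22 and at 3.69, 2.35 and 0.57 on day 37. Locus and host did not overlap between day 7 and day 22. To day 22 the locus changed by 2.55 ± 0.25 and the host by −3.04 ± 0.41 on the log2 scale (SE; limma adjusted p 6.14e-11 and 1.81e-05).

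LXLOC_037001, on NC_035436.1 from 49867813 to 49870156, rose from 0.0633 ± 0.0379 FPKM to 11.1 ± 4.04 at day 22 (SD, n = 3), and its host LOC110936230 fell from 23.2 ± 1.24 to 3.63 ± 0.771. LXLOC_010296, on NC_035433.1 from 123499846 to 123502064, rose from 0.0467 ± 0.0153 to 5.83 ± 2.96 FPKM, and LOC110876709 fell from 9.93 ± 0.516 to 2.09 ± 0.465. Both of these hosts fell again after day 22, to 1.28 and 0.213 FPKM on day 37. For LOC110936230 that call was lost with median-of-ratios scaling (log2 change −0.68) and without day 22 replicate 1 (−0.96), day 22 replicate 2 (−1.04) or day 37 replicate 3 (−0.77). LXLOC_021271, between 132186016 and 132188831 on NC_035434.1, went from 0.01 up to 3.27 ± 0.749 FPKM, and LOC110922200 fell from 39.3 ± 3.53 to 12.7 ± 3.97. With quantile normalization LXLOC_037001 was the only 1 of the 4 loci to keep its call, and LOC110922200 lost its call there and without day 22 replicate 3.

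Other pairs rose together. LXLOC_024378, on NC_035435.1 from 32092831 to 32095968, was at 0.06, 0.09 and 0.05 FPKM on day 7, at 9.03, 13.59 and 18.01 on day 22 and at 17.12, 18.23 and 25.07 on day 37. Its host LOC110931378 was at 0.03, 0 and 0 FPKM, then at 11.56, 14.44 and 19.89, and then at 16.31, 22.16 and 30.08. Both stood highest in replicate 3 of each late day. To day 22 the locus changed by 3.72 ± 0.28 and its host by 3.98 ± 0.32 on the log2 scale (SE; limma adjusted p 1.3e-13 and 2.38e-07).

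LXLOC_020557, on NC_035434.1 from 112958778 to 112962451, was at 2.97 ± 0.182, 47.2 ± 17.1 and 63 ± 15 FPKM (SD, n = 3). Its host LOC110894380 was at 2.43 ± 0.388, 95 ± 28.8 and 147 ± 36.7 FPKM. LXLOC_002191, on NC_035433.1 from 71423633 to 71424170, rose from 0.18 ± 0.0557 to 7.4 ± 3.26 FPKM at day 22 while the gene with ID 110905820 rose from at most 0.05 to 6.05 ± 2.78. LXLOC_051041, on NC_035437.1 from 102110120 to 102111408, rose from 0.113 ± 0.0115 to 14.6 ± 4.1 FPKM while LOC110943181 rose from at most 0.02 to 5.1 ± 1.91. With quantile normalization LXLOC_002191 lost its call (log2 change 0.90). In none of the tested pairs were both members called from day 22 to day 37.

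The 4 loci with the most abundant hosts stood at or below 2.85 FPKM in every library. LXLOC_038369 and LXLOC_008761 among them rose at day 22. Whether their levels follow the host was not tested. LXLOC_002356, on NC_035433.1 from 75074787 to 75075330, lies opposite LOC110937061, which was at 1964.1, 1962.42 and 2070.76 FPKM on day 7 and at 2.9, 2.13 and 1.68 on day 22. The locus was at 0.4, 0.37 and 0.25 FPKM on day 7 and at 1.18, 0.4 and 1.2 on day 22, and was not called. Its log2 fold change was 0.50 as deposited and −1.15 with quantile normalization. LXLOC_041390, on NC_035436.1 from 177690629 to 177691104, stayed at or below 1.97 FPKM while LOC110938216 went from 70.5 ± 7.65 FPKM to 807 ± 237 and back to 144 ± 87.2 (SD, n = 3).

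LXLOC_038369, on NC_035436.1 from 95545431 to 95545995, rose from 0.06 ± 0.0721 to 2.47 ± 0.287 FPKM at day 22 while its host LOC110936707 rose from 0.0267 ± 0.0306 to 359 ± 146 (SD, n = 3). The call of the locus was lost with both other scalings (log2 fold change 0.95 and 0.09, against 1.71). LXLOC_008761, on NC_035433.1 from 85612844 to 85614704, stood at 0.0267 ± 0.0115, 1.41 ± 0.611 and 1.72 ± 0.297 FPKM. Its host LOC110870764 fell at each step, from 564 ± 7.5 to 23 ± 8.03 and then to 0.187 ± 0.118 FPKM. LXLOC_008761 rose at day 22 (limma adjusted p 1.82e-06), but its log2 change was −0.30 with quantile normalization. It was at no more than 0.04 FPKM on day 7 and at 0.71 or more in every late library. The negative value therefore shows no fall of the deposited level.

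Some hosts carried more than 1 locus, and loci of 1 host are not independent of each other. The host with 3 loci and 1 of the 46 tied hosts with 2, taken by its ID, are described. LOC110899751 carried LXLOC_016801, LXLOC_016802 and LXLOC_016803 on the plus strand of NC_035434.1 between 164009262 and 164014342, with gaps of 1277 and 285 bases. All 3 were listed at 0 in every day 7 library. On day 37 they stood at 0.767 ± 0.405, 1.27 ± 0.108 and 1.2 ± 0.08 FPKM (SD, n = 3), and the host at 0.987 ± 0.457. LXLOC_016802 and LXLOC_016803 were not called at day 22, where their log2 fold changes were 0.88 and 0.98. With quantile normalization these were −0.10 and −0.036. That method gives features listed at 0 a value above 0, so the negative signs show no fall. LOC110868942 carried LXLOC_008303 and LXLOC_008304 on the minus strand of NC_035433.1, 2181 bases apart. LXLOC_008303 rose from 0.147 ± 0.0208 FPKM to 26.1 ± 9.54 at day 22 and stood at 35 ± 6.34 on day 37, while its neighbour stood at 1.56 ± 0.837 FPKM on day 37. The log2 fold change of LXLOC_008304 at day 22 was 0.88, and −0.11 with quantile normalization. This locus too was listed at 0 in every day 7 library, so the negative value shows no fall.

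Neighbouring assembled loci were compared as well. Within 1000 bases on the same strand 235 of the 1584 loci (14.8%) had another assembled locus, which was a single-exon intergenic locus in 115 cases and another single-exon antisense locus in 99. The median distance to the nearest assembled locus of the same strand was 6858 bases. An assembled locus of the opposite strand overlapped 219 loci (13.8%), and in 181 of these it carried the class code j, which marks a spliced isoform of an annotated gene.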

How the data were processed

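The authors deposited gene levels for mRNA and lncRNA as FPKM, per the file headers, with 1 column per library. The submitters' processing notes name RSEM 1.2.12, HISAT2 2.0.4, DESeq2 1.4.5 and Bowtie2 2.2.5 with no role. The total used for scaling, the counting by strand and the genome build are not given in the sources used here, and no read counts were used, so depth is unknown. The deposited assembly gives exon starts and ends, strands and class codes, and its second column names Cufflinks, per the file itself. No sequence was read, since no genome of the files' build was used. Host IDs were matched to a RefSeq gene table (HanXRQr2.0-SUNRISE) for symbols and gene classes alone.

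Each FPKM table was fitted whole, as log2(FPKM + 1), with limma 3.58.1 in R 4.3.3 (trended, robust empirical Bayes) on all 9 libraries, for features at 1 FPKM or more in at least 3. A fold change on this scale understates the change of low features. Counts and figures came from pandas 2.3.3, numpy 2.4.6 and matplotlib 3.10.9 under Python 3.11.15. Simulated data with normal spread served to check the fitting code alone. They did not copy the low day 7 levels of these loci. Alternatives were a pseudocount of 0.1, no filter, a filter at 5 FPKM, quantile normalization, median-of-ratios scaling, the replicate number as a block and single libraries left out.

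The members and lists were chosen with earlier results of these data known. Loci named were the 6 with the highest mean, the 3 risen and 3 fallen with the largest called change and no overlap in each comparison, the 4 with the most abundant host, those of the host with 3 loci and of the first by ID among the 46 hosts with 2, the 4 pairs called together and the 4 called apart whose smaller change of the pair was largest, and the 3 highest on day 7 among those at 1 FPKM or more everywhere. Others are said to be named on their values.

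Whether equal replicate numbers pair libraries was checked by correlating deviations from the day means. Day 22 and day 37 gave 0.52, 0.09 and 0.55 in the lncRNA table and 0.77, 0.15 and 0.78 in the mRNA table, and pairs with day 7 lay between −0.06 and 0.06. A threshold of 0.1 in every pair was met by the late libraries in the mRNA table alone. Both tables come from the same libraries, so these values do not settle whether equal numbers mark paired material.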

Additional observations from a re-analysis of the deposited data

How the results depend on the processing

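Counts of calls depended on scaling, filter and pseudocount, and the cause was not tested. From day 7 to day 22, 469 loci rose and 0 fell. With median-of-ratios scaling, where 311 in place of 744 loci were tested, 162 rose and 52 fell, with quantile normalization 75 and 37, with a pseudocount of 0.1 717 and 3, and with a filter at 5 FPKM 99 rose, fewer loci being tested there. Hosts risen were 67 with quantile normalization and 38 with the 5 FPKM filter, and hosts fallen were 134 with median-of-ratios scaling. From day 22 to day 37, 1 locus rose and 4 fell; the pseudocount gave 5 and 8, the 5 FPKM filter 0 and 0, and both scalings 0 risen. Hosts risen there were 5, against 28 with median-of-ratios scaling, 38 with quantile normalization, 11 with the pseudocount and 1 with the 5 FPKM filter, and hosts fallen were 91 with median-of-ratios scaling. From day 7 to day 37, 661 loci rose and 2 fell, against 199 and 53, 78 and 39 with the 2 scalings and 99 and 0 with the 5 FPKM filter, and 5 fell with the pseudocount. Hosts risen were 34 with that filter, and hosts fallen 203 with median-of-ratios scaling. Without both late libraries numbered 3, 1 locus fell at day 22, 0 rose and 2 fell after it, and 18 hosts rose after it.

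Leaving out 1 library gave 374 to 579 loci risen and 0 to 1 fallen at day 22, 0 to 4 risen and 2 to 4 fallen after day 22, and 534 to 662 risen and 2 fallen to day 37. For hosts the ranges were 135 to 184 risen and 170 to 248 fallen, 3 to 30 and 92 to 193, and 187 to 211 and 301 to 375. The 30 hosts came without day 37 replicate 3, the 3 without day 37 replicate 2 and the 92 without day 22 replicate 1. The 1 fallen locus came without day 22 replicate 2 or 3. Loci risen after day 22 were 2 without day 22 replicate 1, 4 without day 22 replicate 3 and 0 without any 1 of the day 37 libraries. With the replicate number as a block 470 loci rose and 0 fell at day 22, and 163 in place of 146 hosts fell after it; no count of calls moved by more than 1.5 times.

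With a minimum of 0.5 FPKM the mean number of loci per library was 64.3, 1178 and 1387 on the 3 days, and with 5 FPKM it was 0, 86.3 and 105. Of 1468 alternative values for single loci and hosts 22 changed sign, 60 lost a call with the sign kept and 16 gained a call. Some of the 22 lost a call as well. With quantile normalization the log2 change at day 22 was −1.15 for LXLOC_002356, −0.30 for LXLOC_008761, −0.10 for LXLOC_016802, −0.036 for LXLOC_016803, −0.11 for LXLOC_008304, −0.31 for LXLOC_021714 and −0.48 for LXLOC_031606. It was −0.20 for LXLOC_032804 and −0.010 for LXLOC_002871. With median-of-ratios scaling it was −1.37 for LXLOC_021714, −1.40 for LXLOC_031606, −0.70 for LXLOC_032804 and −0.57 for LXLOC_002871. From day 7 to day 37 quantile normalization gave −0.12 for LXLOC_038369, −0.32 for LXLOC_008761, −0.031 for LXLOC_016802, −0.058 for LXLOC_016803, −0.30 for LXLOC_021714, −0.15 for LXLOC_002871 and 0.24 for LOC110922200, and median-of-ratios scaling −1.26 for LXLOC_021714 and −0.60 for LXLOC_002871. LXLOC_016802, LXLOC_016803 and LXLOC_008304 were listed at 0 in every day 7 library, so their negative values show no fall. LXLOC_008761 and LXLOC_038369 were at no more than 0.04 and 0.14 FPKM on day 7. Every late library was above that, so their negative values show no fall of the deposited level either. Depth is unknown, so no counting error could be set beside the low values.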
